A study of Mus musculus with 6 samples.

Results

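The SOX factors *Sox5*, *Sox6*, *Sox8* and *Sox9*, which drive or mark chondrocyte differentiation, and *Sox4*, *Sox11* and *Sox12*, which belong to the progenitor-associated SOXC group, were compared between Gli1+ and Gli1- cells. These 7 genes were taken by symbol from a count table of 54532 genes, which held 20 SOX genes in all. Both populations came from 1-month-old mice on a C57BL/6 background that carried Gli1-CreERT2 and a tdTomato reporter (Ai9), and cells were taken 24 h after tamoxifen (TAM). Cre was expressed from Gli1, so tdTomato marked the cells in which Gli1 had been active, and their descendants. Gli1+ cells were sorted as CD45- CD31- Ter119- tdTomato+, and Gli1- cells as CD45- CD31- Ter119- tdTomato-, from the same mice. There were 3 libraries of each population. The labels name the growth plate as the tissue, while the study describes digestion of costal cartilage. In bulk libraries such as these, fewer cells of a type and less RNA per cell cannot be told apart.

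SOX proteins bind DNA through a high-mobility-group (HMG) box, a domain that bends the helix. *Sox9* is required for chondrocyte specification, and *Sox5* and *Sox6* are coactivators that bind with it at enhancers of cartilage matrix genes, so that these genes are known as the SOX trio. *Sox8* is the closest relative of *Sox9*. *Sox4*, *Sox11* and *Sox12* are intronless or nearly intronless genes active in skeletal and neural progenitors, where they act on cell survival and on the boundary between growing cartilage and its surroundings.

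The HMG box is the stretch in which these genes are most alike, so it shows whether reads can be told apart. The coding sequences below are from GENCODE M21 (GRCm38), read 5′ to 3′ on the gene's strand, and capitals mark bases that differ from Sox11. The Sox11 box lies at chr12:27342031-27342267 in a single exon, the Sox4 box at chr13:28952614-28952850 in a single exon, and the Sox9 box at chr11:112782894-112783923 across 2 exons.
Sox11: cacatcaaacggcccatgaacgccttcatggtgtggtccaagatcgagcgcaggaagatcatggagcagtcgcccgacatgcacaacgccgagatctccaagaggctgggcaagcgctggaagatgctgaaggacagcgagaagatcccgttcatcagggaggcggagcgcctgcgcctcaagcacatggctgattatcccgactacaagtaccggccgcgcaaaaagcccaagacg
Sox4: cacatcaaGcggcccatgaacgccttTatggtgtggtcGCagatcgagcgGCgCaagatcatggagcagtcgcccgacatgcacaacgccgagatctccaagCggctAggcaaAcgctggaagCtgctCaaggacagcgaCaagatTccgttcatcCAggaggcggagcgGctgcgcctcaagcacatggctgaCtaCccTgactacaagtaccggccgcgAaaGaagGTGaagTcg
Sox9: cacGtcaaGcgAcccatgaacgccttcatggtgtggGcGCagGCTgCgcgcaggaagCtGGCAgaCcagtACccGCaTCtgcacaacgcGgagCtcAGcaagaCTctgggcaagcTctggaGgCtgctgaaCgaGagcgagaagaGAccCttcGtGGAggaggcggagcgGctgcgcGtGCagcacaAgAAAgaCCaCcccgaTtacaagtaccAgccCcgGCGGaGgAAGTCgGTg
Sox4 differed from Sox11 at 26 of 237 bases, and Sox9 at 66. Identity over the box ran from 52.3% to 89.0% among the 21 pairs of the 7 genes, with Sox4 and Sox11 the closest in bases. The longest run without a difference, 48 bases, was between Sox4 and Sox11. No stretch of 50 bases was shared between any of the 7 genes, over their longest coding transcripts. Another gene does share sequence with *Sox4*, however: 2567 of its 4746 windows of 50 bases lie in Gm26735, a lincRNA annotated on the opposite strand, which held 2 counts in all. Whether counting used strand is not given in the sources used here, so reads there may have been left out of the *Sox4* count.

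Totals lay between 17114101 and 18602482 counts per library. Gli1+ replicate 1 stood apart, with 15000 genes detected against 20666 to 23360 in the other 5 libraries, and 182 genes with a single count against 1997 to 2453. Where leaving it out turned a direction or moved a value strongly, the value without it is given too. *Gli1* itself, the gene that drove the label, had 86 to 152 counts in Gli1+ and 14 to 46 in Gli1- libraries. Chondrocyte markers were abundant in every library as a sum. The 8 of 8 measured genes came to 7219 to 18868 CPM (counts relative to the TMM-scaled library total) in Gli1+ and 5442 to 24830 in Gli1- libraries. Not each of the 8 was abundant. *Matn1* was at 0, 4.48 and 0.315 CPM in Gli1+ and 4.34, 43.2 and 0.370 CPM in Gli1- replicates 1, 2 and 3. Gli1- replicate 1 held 3103 CPM of neutrophil markers, against 9.40 to 72.3 in the others, although CD45 had been gated out.

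*Sox9* was by far the most abundant of the 7 factors once length was taken into account. In CPM per kilobase of the deposited gene length it averaged 75.2 ± 33.1 in Gli1+ and 110 ± 27.1 in Gli1- cells (SD, n = 3 each). Its lowest library, at 53.9, exceeded the highest value of any other member, 7.79 for *Sox4*. *Sox4*, *Sox5* and *Sox6* followed with means over the 6 libraries of 6.35, 5.75 and 4.52 CPM per kilobase, and their libraries overlapped. The *Sox4* level divides by its full 4795 bases. If reads shared with Gm26735 were left out, that level is too low, and the sums and ratios that use it are affected. *Sox8* and *Sox12* came next at 2.15 and 2.13, and did not differ beyond their spread. *Sox11* was the lowest, at 0.888. The deposited lengths of *Sox5* and *Sox6*, 14376 and 14832 bases, pool the exons of all transcripts. With the length of the longest coding transcript instead, a choice made after seeing the data, *Sox5* at 11.4 and *Sox6* at 7.73 CPM per kilobase moved above *Sox4*, and the first and the last places stayed with *Sox9* and *Sox11*.

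**Figure D1:**
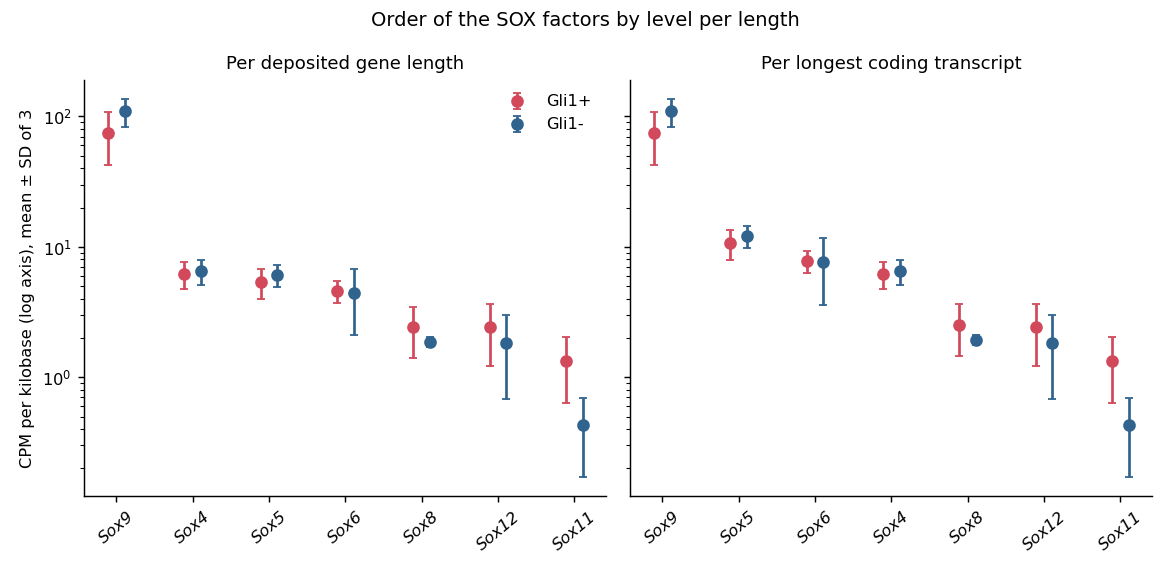
Level per length of the 7 SOX factors in CPM per kilobase on a log axis, with points and bars for the mean ± SD of 3 libraries of Gli1+ (red) and Gli1- (blue) cells; the left panel divides by the deposited gene length and the right by the longest coding transcript. *Sox9* stands above all others in both panels, and *Sox5* and *Sox6* pass *Sox4* in the right one.

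Between populations, *Sox11* was the 1 member of 7 whose libraries did not overlap, and it was higher in Gli1+ cells. None of the 7 passed the threshold of an absolute log2 fold change (log2FC) over 1 and an adjusted p under 0.05 in edgeR's quasi-likelihood test with Benjamini-Hochberg adjustment. Over all 14801 genes tested, 0 were called (0%) in that fit, and 514 (3.47%) had an unadjusted p under 0.05, *Sox11* among them. The populations did not overlap for 1257 genes (8.49%), of which 598 (4.04% of those tested) were higher in Gli1+ cells. DESeq2 with the pairs as a block called 428 genes (2.89%) and 0 of the 7 members. All 7 members passed the filter on low counts, and the lowest count of any of them in a library was 26.

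Among the SOX trio, *Sox9* (chromosome 11, plus strand) had lower values in Gli1+ cells in each of the 3 pairs of same-numbered libraries. Its level was 241, 223 and 469 CPM in Gli1+ replicates 1, 2 and 3, and 415, 365 and 580 CPM in Gli1- replicates 1, 2 and 3. The third Gli1+ library lay above the first and second Gli1- libraries, so the populations overlapped. Pair differences on the log2 scale were -0.78, -0.71 and -0.31. In the fit over all libraries the log2FC was -0.54 ± 0.47 (SE), with a 95% interval from -1.64 to 0.55 and an adjusted p of 0.9999 by edgeR's quasi-likelihood test. The fit with the pairs as a block gave -0.60 ± 0.26 and an adjusted p of 0.610, again by edgeR. Lower values in all 3 pairs were found for 2933 genes (19.8%) of those tested. Perichondrium and fibroblast markers, 8 of 8 measured, were among the lists with lower sums in 3 of 3 pairs, at 308 to 1587 CPM on the Gli1+ and 725 to 5297 on the Gli1- side, and their part in the *Sox9* values was not tested.

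*Sox5* and *Sox6*, the long SOXD partners of *Sox9* on chromosomes 6 and 7, showed no common direction. The *Sox5* level in CPM was 95.7, 80.7 and 56.0 for Gli1+ and 68.8, 96.7 and 97.8 for Gli1- replicates 1, 2 and 3. Its first pair was higher in Gli1+ cells and the other two were lower. That of *Sox6* was 58.4, 82.9 and 62.7 for Gli1+ and 29.0, 97.9 and 71.0 for Gli1- replicates. Its lowest value fell in Gli1- replicate 1, the library that held the neutrophil markers, whose part in that value was not tested. The log2FC was -0.18 ± 0.39 for *Sox5* (95% interval -1.07 to 0.71) and 0.04 ± 0.50 for *Sox6* (-1.10 to 1.18). Without Gli1- replicate 1, that of *Sox6* was -0.32, the opposite direction. Without Gli1+ replicate 1, that of *Sox5* was -0.38 ± 0.39. The interval of *Sox6* holds 2-fold changes in either direction, and that of *Sox5* a 2-fold lower level. The 7 genes annotated within *Sox5* held 9 counts in all libraries together, and the 2 within *Sox6* held 46, all in the antisense *Sox6os*.

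*Sox8* (chromosome 17), which shares 98.7% of its HMG box residues with *Sox9*, was low and varied mostly in one library. Its CPM values were 5.19, 11.3 and 6.35 for Gli1+ and 5.43, 6.37 and 5.61 for Gli1- replicates. Gli1+ replicate 2 was the only library above 10 CPM. The log2FC was 0.39 ± 0.53 (95% interval -0.82 to 1.60), and without Gli1+ replicate 2 it was -0.020. Of the 2951 windows of 50 bases in its transcript, 280 also occur in 2810468N07Rik.

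Of the SOXC genes, *Sox11* (chr12:27334264-27342574, minus strand, 1 exon) was the lowest per length and had the largest difference of the 7. It had 334, 157 and 118 counts in Gli1+ and 71, 86 and 26 counts in Gli1- replicates 1, 2 and 3. As CPM these were 17.7, 9.64 and 6.20 in Gli1+ and 3.67, 5.70 and 1.38 in Gli1- libraries. Every Gli1+ library lay above every Gli1- library, by a narrow margin between Gli1+ replicate 3 and Gli1- replicate 2. The means were 11.2 ± 5.89 and 3.58 ± 2.17 CPM (SD, n = 3 each). The log2FC was 1.64 ± 0.69, with a 95% interval from 0.04 to 3.24, an unadjusted p of 0.0453 and an adjusted p of 0.9999 in edgeR's fit over all genes. A 2-sided exact permutation test of mean log2 CPM gave p = 0.1, the smallest that 3 libraries against 3 allow, and the other 6 members gave 0.3 to 0.9 in the same exact test. The study reported *Sox11* as significantly enriched in Gli1+ cells from these same libraries, so its difference is not independent evidence. The study's thresholds were also an absolute log2FC over 1 and an adjusted p under 0.05. *Sox11* did not pass them in any fit here, so that call was not reproduced. The study's methods do not name the test behind it.

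The size of the *Sox11* difference depended on single libraries, among them Gli1+ replicate 1, which held its highest value. Without that library the log2FC was 1.12 ± 0.69 (95% interval -0.52 to 2.76), and without Gli1- replicate 3, which held its lowest, it was 1.25 ± 0.73 (-0.46 to 2.95). Leaving out Gli1- replicate 2 gave 2.09, and the unadjusted p of edgeR was over 0.05 in 4 of the 6 fits that leave out 1 library. The lack of overlap over all 6 libraries fixes that of the remaining libraries when Gli1+ replicate 1 is left out, so it is no further check. Without that library 2176 genes (14.7%) did not overlap. With the pairs as a block, edgeR gave 1.73 ± 0.48 with an adjusted p of 0.448, and DESeq2 gave 1.72 ± 0.56 with an adjusted p of 0.0602. In 3 of 3 pairs the Gli1+ value of *Sox11* was the higher one, which also follows from the lack of overlap. Higher values in all 3 pairs were found for 2607 genes (17.6%). Cell cycle markers as a sum also had higher values in Gli1+ cells in 3 of 3 pairs. Their summed level was 33.0 to 121 CPM on the Gli1+ and 16.9 to 36.7 on the Gli1- side. Of the 10 listed, 8 of 8 tested genes had a log2FC above 0, *Ccnb2* at only 0.10. *Ccnb2* and *Birc5* were higher in Gli1+ cells in 1 pair and *Bub1* in 2, and the other listed genes in 3. The part of these markers in the *Sox11* difference was not tested. Dissociation stress markers moved the other way, with sums of 2005 to 16202 CPM on the Gli1+ and 11275 to 33314 on the Gli1- side and lower sums in 3 of 3 pairs, and their part was not tested either.

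*Sox4* (chromosome 13), the close relative of *Sox11*, was the steadiest of the 7 across libraries. Its CPM values were 23.3, 37.0 and 29.0 for Gli1+ and 32.3, 37.3 and 23.8 for Gli1- replicates, a 1.60-fold range over all 6, and both populations covered nearly the same range. Its log2FC was -0.07 ± 0.40, and the 95% interval from -0.98 to 0.85 holds no 2-fold change in this fit. Without Gli1+ replicate 1 its log2FC was 0.06 ± 0.40, the opposite direction. *Sox12* (chromosome 2), the third SOXC gene, had CPM values of 9.84, 6.02 and 16.7 for Gli1+ and 12.0, 2.32 and 10.1 for Gli1- replicates. It varied 7.20-fold among the 6 libraries and was lowest in the second library of each population. Its log2FC was 0.41 ± 0.70, with a wide 95% interval from -1.21 to 2.03.

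**Figure D2:**
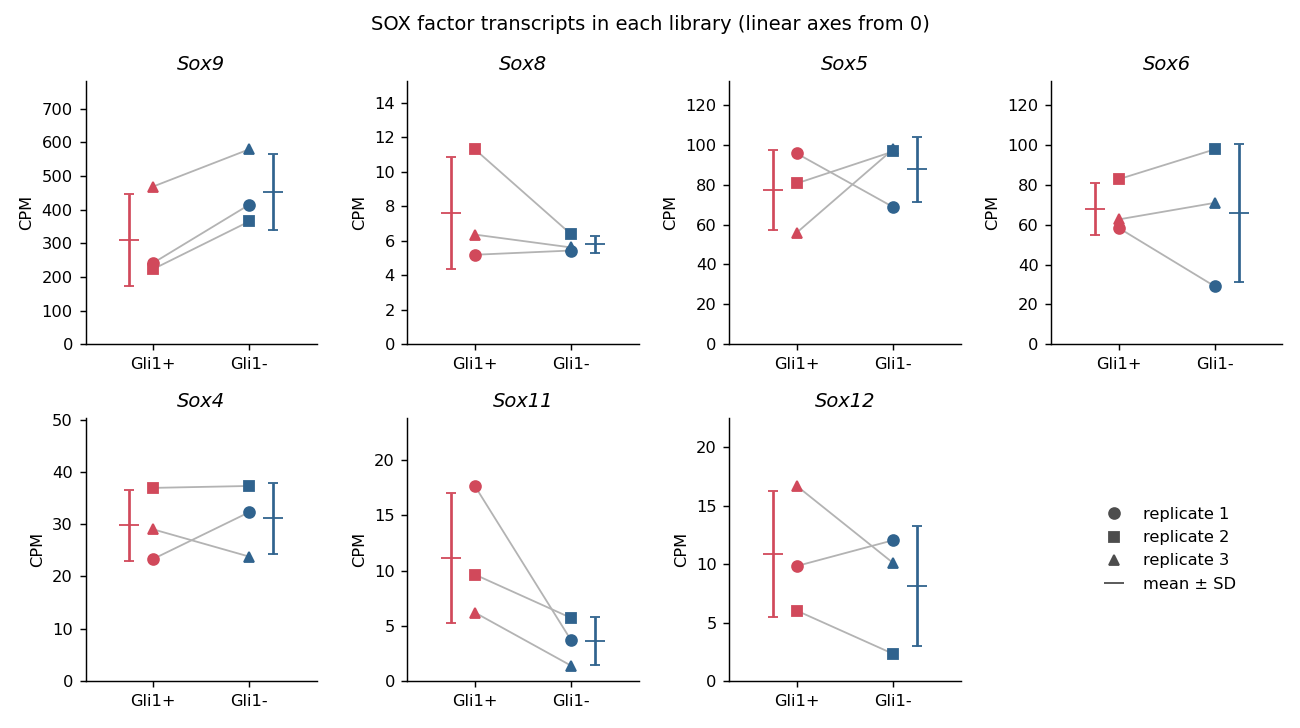
CPM of each SOX factor in the 6 libraries on linear axes from 0, with grey lines joining same-numbered libraries and a bar for the mean ± SD (n = 3) beside each population. *Sox11* is the only factor whose Gli1+ points, 6.20 to 17.7, all lie above the Gli1- points, 1.38 to 5.70, and *Sox9* is lower in Gli1+ cells along each of the 3 lines.

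**Figure D3:**
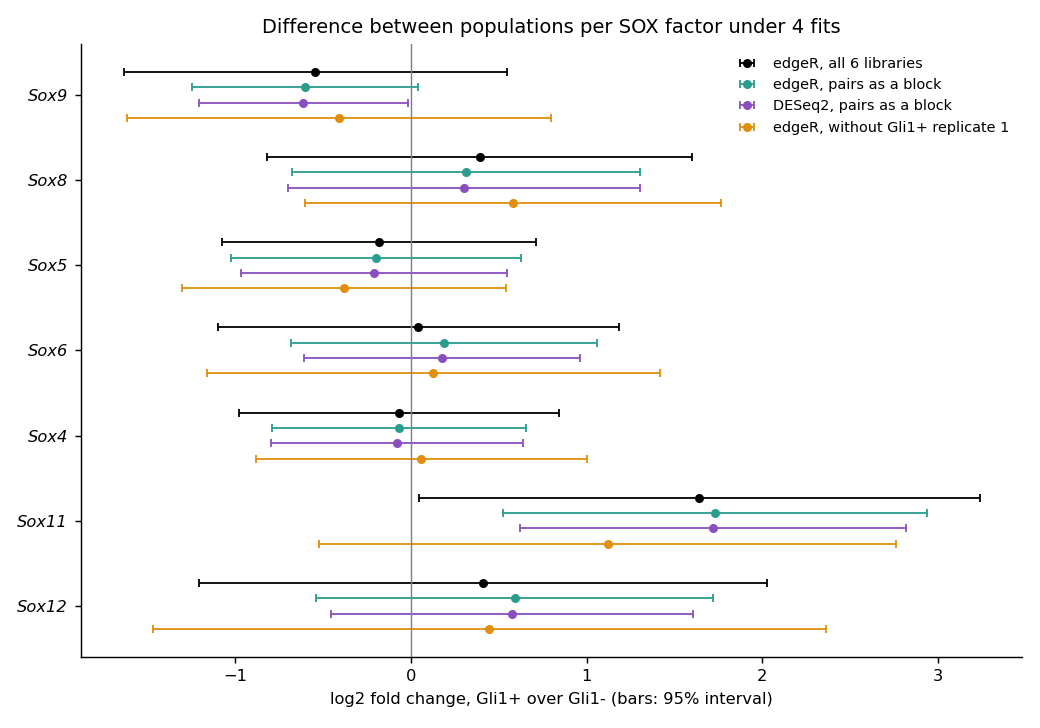
Log2 fold change of Gli1+ over Gli1- cells per SOX factor with its 95% interval under 4 fits (edgeR, edgeR and DESeq2 with the pairs as a block, and edgeR without Gli1+ replicate 1). The interval of *Sox11* lies above 0 in the first 3 fits and reaches -0.52 in the last, and *Sox9* lies below 0 throughout with an upper bound under 0 in the DESeq2 fit alone.

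The balance of the arms within a library was then read from ratios of CPM per kilobase, which need no comparison of depth between libraries. The sums behind these ratios, where compared between libraries, do rest on the TMM scaling. The SOXC genes summed to 9.99 ± 0.704 in Gli1+ and 8.76 ± 1.26 in Gli1- cells, and the chondrogenic genes to 87.6 ± 31.1 and 122 ± 27.4 (SD, n = 3 each). SOXC transcripts were thus 13.0%, 14.9% and 8.55% of the chondrogenic level in Gli1+ replicates 1, 2 and 3, and 9.09%, 8.67% and 4.82% in Gli1- replicates. Each of the 3 pairs had the higher ratio on the Gli1+ side, although the populations overlapped. Its mean on the log2 scale was higher by 0.71 in Gli1+ cells, against a pooled SD of 0.47, and no test was made because the ratio is a score over the members. *Sox9* alone made up 68.3% to 87.1% of the summed level of the 7 genes, so the denominator is mostly *Sox9*. The chondrogenic sum had its lower value on the Gli1+ side in every pair, but the SOXC sum its higher value there in only 2 pairs. Shares of the 7-gene sum were larger on the Gli1+ side in every pair for the SOXC genes, and equally for *Sox6* and *Sox8*. For *Sox5* this held in 2 pairs, and for *Sox9* in none. A larger share was thus not particular to the SOXC genes.

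The level of *Sox11* was also set against *Sox9* and against the other SOXC genes. Per kilobase it was 3.65%, 2.15% and 0.658% of the *Sox9* level in Gli1+ and 0.440%, 0.777% and 0.118% in Gli1- replicates, with 1 Gli1+ library below 1 Gli1- library. Against *Sox4* the populations were apart, with ratios of 0.123 to 0.437 in Gli1+ and 0.0333 to 0.0881 in Gli1- libraries. As a share of the SOXC sum, *Sox11* overlapped, at 7.07% to 23.1% in Gli1+ and 2.24% to 7.63% in Gli1- libraries. Against *Sox12* the direction was not shared by all pairs. Per kilobase, *Sox11* exceeded *Sox12* in Gli1- replicate 2 alone, so the second pair had the higher ratio on the Gli1- side. *Sox12* against *Sox4* overlapped, at 0.175 to 0.619 and 0.0669 to 0.457. By arm, the median log2FC was -0.07 over the 4 chondrogenic genes and 0.41 over the 3 SOXC genes, beside 0.00 over all genes tested. The SOXC median is the value of *Sox12* alone, between *Sox4* at -0.07 and *Sox11* at 1.64, so the 3 genes shared no direction. Without Gli1- replicate 2 the log2FC of *Sox12* was -0.065.

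**Figure D4:**
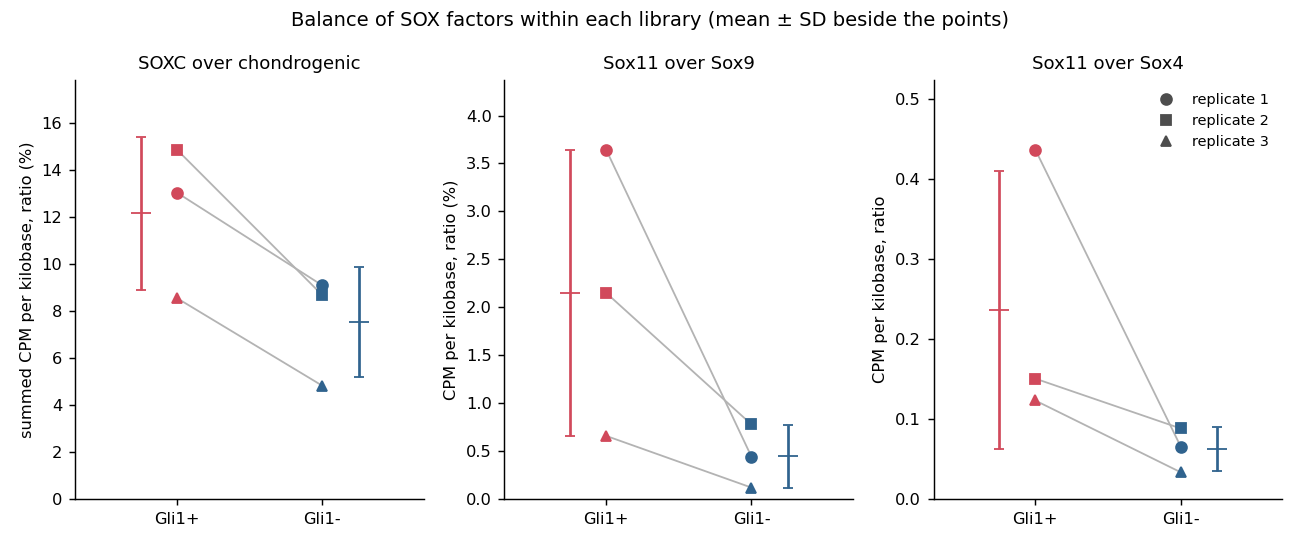
Ratios of levels per kilobase within each library, joined by replicate number, with the mean ± SD (n = 3) beside each population: SOXC over chondrogenic genes in percent, *Sox11* over *Sox9* in percent, and *Sox11* over *Sox4*. All 3 ratios are higher in Gli1+ cells in every pair, and the *Sox11* to *Sox4* ratio alone does not overlap, with 0.123 as the lowest Gli1+ and 0.0881 as the highest Gli1- value.

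Genes known as targets of the SOX trio in cartilage matrix did not follow *Sox9* in one direction. Of 17 listed and tested, 0 passed the threshold, 4 had a log2FC above 0 and 13 below, and the median was -0.24. Without Gli1+ replicate 1 the split turned to 11 above 0 and 6 below, with a median of 0.14. *Col2a1*, the main cartilage collagen, was at -0.03, and at 0.29 without that library. *Acan*, the aggrecan core protein, had the highest value of the list, 0.94 ± 0.66, with higher levels in 3 of 3 pairs. *Comp*, a matrix oligomer, was at -1.52 ± 0.76, *Col9a2* at -0.52 and *Col11a2* at -0.24, the last 2 of which came to -0.093 and 0.13 without that library. The second library of each population held 12239 and 13534 CPM of *Col2a1* against 2130 to 3240 in the other 4, while *Sox9* was at its lowest for each population there. DESeq2 with the pairs as a block called 2 of the 17, both lower, and *Comp* was 1 of them with an adjusted p of 0.000367.

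Hypertrophy genes, which *Sox9* is known to restrain, held the clearest single difference. Of 10 tested, 0 passed the threshold in edgeR, 5 were above 0 and 5 below, and the median was 0.18. *Mmp13*, a collagenase of late hypertrophic cartilage, had CPM values of 5328, 2861 and 4859 for Gli1+ and 457, 592 and 607 for Gli1- replicates. The populations stood far apart, and the log2FC was 2.98 ± 0.54 with an adjusted p of 0.9999 in edgeR's fit and 6.61e-12 in DESeq2 with the block. *Col10a1*, the collagen that defines hypertrophic chondrocytes, went the other way at -2.46 ± 1.13, with lower values in 3 of 3 pairs and an adjusted p of 0.9999 by edgeR and 6.28e-07 by DESeq2 with the block. *Panx3*, named after its values were seen, was the other gene whose populations did not overlap, at 1.41 with at most 32 counts in a library. *Spp1*, *Vegfa* and *Ibsp* were at -0.54, 0.47 and -0.15, and at -0.21, 0.69 and -0.26 without Gli1+ replicate 1.

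Partners and regulators of SOX9 and genes linked to SOXC proteins were also divided in direction. Of 12 partners, 0 passed the threshold, 5 were above 0 and 7 below, and the median was -0.07 (2 and 10, and -0.35, without Gli1+ replicate 1). The most abundant were *Hif1a*, the hypoxia factor, at a log2FC of 0.10, *Ctnnb1*, which encodes beta-catenin, at -0.10, *Wwp2*, a ubiquitin ligase hosting a cartilage microRNA, at -1.21, and the acetyltransferases *Ep300* at 0.39 and *Crebbp* at 0.13. DESeq2 with the block called 1 of the 12, *Wwp2*, lower with an adjusted p of 0.0303. Without Gli1+ replicate 1, *Hif1a*, *Ep300* and *Crebbp* turned to -0.096, -0.37 and -0.44, and *Ctnnb1* was at -0.36. Chosen after their values were seen, *Nkx3-2* (2.07) and *Arid5b* (-1.05) were the 2 partners whose populations did not overlap. Of 7 genes linked to SOXC proteins, 0 passed, 4 were above 0 and 3 below, and the median was 0.03 (2 and 5, and -0.31, without that library). *Gpc6*, a glypican, was at -1.43, *Gdf5*, a joint growth factor, at -0.89, *Wnt5a*, a noncanonical Wnt ligand, at 1.15, its receptor *Ror2* at 0.03 and the receptor *Fzd3* at 1.11. DESeq2 with the block called 1 of these 7, *Gpc6*, lower with an adjusted p of 0.00217. *Fzd3* was at 40.7 CPM in Gli1+ replicate 1 and at 5.34 to 9.72 CPM in the other 5 libraries, and without that library its log2FC was -0.31 and that of *Ror2* -0.16, while *Gdf5* was at -0.56.

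**Figure D5:**
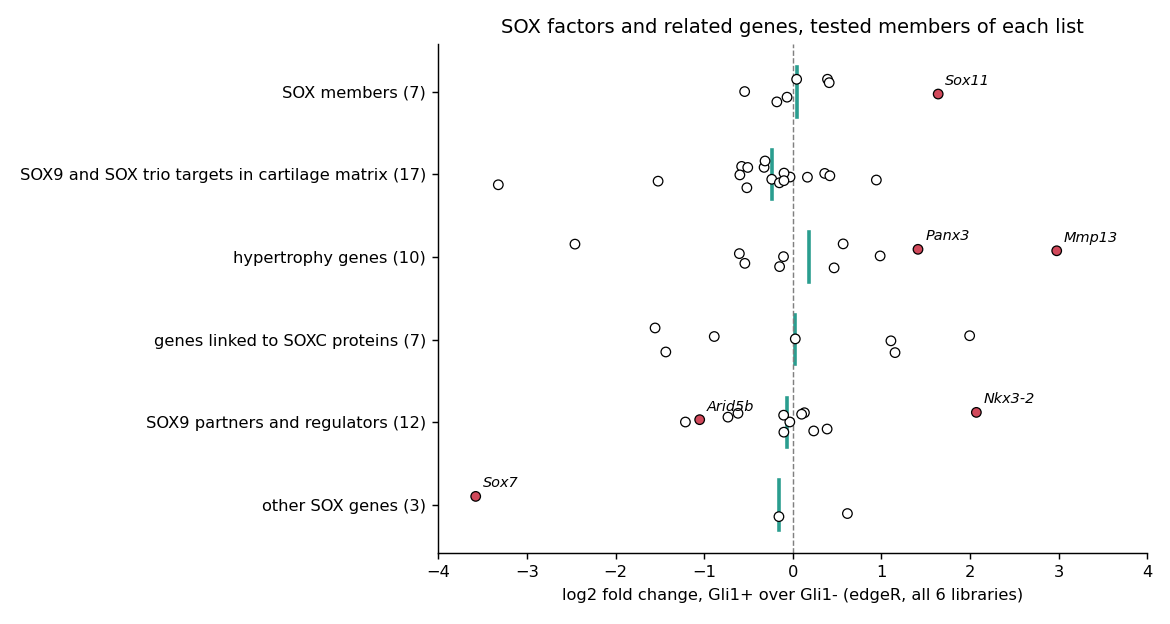
Log2 fold change of Gli1+ over Gli1- cells (edgeR) for the SOX members and the tested genes of 5 lists, with the number of genes in brackets, green bars for list medians, a dashed line for the median of all genes tested, and red points for genes whose populations do not overlap. *Sox11* at 1.64 is the only red point among the members, and the matrix list sits mostly below 0 with a median of -0.24, which was 0.14 without Gli1+ replicate 1.

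The other 13 SOX genes were scarce. *Sox13*, the third SOXD gene, averaged 5.50 ± 3.23 CPM over the Gli1+ libraries and 3.58 ± 1.98 over the Gli1- libraries (SD, n = 3 each), a log2FC of 0.62 ± 0.72, which was 0.12 without Gli1+ replicate 1. *Sox7*, a SOXF gene of endothelial cells, had 0, 11 and 4 counts in Gli1+ and 103, 39 and 52 counts in Gli1- replicates, and the populations did not overlap. Its log2FC was -3.58 ± 1.23, with an adjusted p of 0.9999 by edgeR and 0.0240 by DESeq2 with the pairs as a block, and without Gli1+ replicate 1 the log2FC was -3.03 ± 0.86. Endothelial markers, of which 2 of 6 were tested, moved with it, from 1.16 to 2.94 CPM in sum in Gli1+ and from 3.70 to 13.2 CPM in Gli1- libraries, although CD31+ cells had been gated out, and their part was not tested. *Sox18* was at -0.16 ± 1.47, and at 0.40 without Gli1+ replicate 1. The remaining 10 did not pass the filter, with at most 31 counts in a library, seen for *Sox10*, a glial and neural crest factor, and 2 of them were at 0 in every library, which allows up to 0.155 to 0.199 CPM.

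Likeness to *Sox9* and *Sox11* was described by the Pearson correlation of log2 CPM over the 6 libraries, among 8451 genes with a mean of at least 10 CPM. With so few points, which share 3 pairs, many genes reach high values, 16 above 0.95 for *Sox9* and 10 for *Sox11*. The 5 most like *Sox9* were *Dbr1* (0.990), *Dmpk* (0.989), *Tpcn2* (0.985), *Nr4a2* (0.976) and *Deaf1* (0.972). The 5 most like *Sox11* were *Psmc2* (0.988), *Ubac1* (0.974), *Gm4204* (0.970), *Gm10698* (0.969) and *Rpe* (0.968).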

How the data were processed

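Poly(A)-selected RNA from 6 libraries, 3 of Gli1+ and 3 of Gli1- cells, was sequenced. The authors deposited 1 table of raw counts per gene with gene coordinates and lengths, and no normalization or pooling of replicates. The submitters' processing notes name HISAT2 2.0.5, featureCounts 1.5.0-p3 and mm10. Of 54409 genes found in GENCODE M21, 98.3% had the same coordinates, as did 7 of 7 members. Every column of values was assigned to a library (0 unused).

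Genes were filtered with filterByExpr (minimum count of 10), which left 14801, scaled by TMM and compared by the quasi-likelihood test of edgeR 4.0.16 in R 4.3.3. Benjamini-Hochberg adjustment covered every gene that passed the filter. Single members were also compared with 2-sided exact permutation tests on log2 CPM (prior count of 2). DESeq2 1.42.0 and limma 3.58.1 served as alternatives. The fits were also run on simulated counts. In each run every gene had the same dispersion and the libraries were not paired, so these runs do not measure the power of the main fit here. Standard errors cover the spread between libraries. Counting error alone is smaller, and precision at low counts is limited by it.

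Same-numbered libraries deviated together from their population means across genes (r of 0.223, 0.720 and 0.471 for numbers 1, 2 and 3), and the study took both populations from the same mice, so libraries with the same number were treated as pairs. The first pair had weak backing, since the crossed coefficient of Gli1+ number 1 and Gli1- number 3 was higher (0.274), and the reverse crossing was also positive (0.107). The main fit has no block. Named are the 7 members, *Gli1*, other SOX genes, genes overlapping a member, of each list the 5 genes with the highest mean CPM and any past the threshold, and the 5 genes most like *Sox9* and *Sox11*. The members, lists and tests were chosen with earlier results of these data known.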

Additional observations from a re-analysis of the deposited data

How the results depend on the processing

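None of the 7 members passed the threshold in any of the 19 planned and 2 added alternatives. The count of called genes over the whole table, 0 in the main fit, was 267 without a filter on low counts (20 higher and 247 lower), 30 with DESeq2 without the block, and 428 with DESeq2 and the replicate block (115 higher and 313 lower). With that block and without both libraries of replicate 1, an alternative chosen after seeing the data, it was 781. With edgeR and the replicate block it stayed at 0, with 1274 genes at an unadjusted p under 0.05. *Sox9* and *Sox5* stayed below 0 and *Sox11* above 0 in those 21 alternatives, although *Sox5* came to -0.0019 in 1 of them. Leaving out 1 library at a time moved the log2FC of *Sox11* between 1.12 and 2.09, of *Sox9* between -0.97 and -0.33, of *Sox12* between -0.065 and 0.80, of *Sox8* between -0.020 and 0.58, of *Sox6* between -0.32 and 0.42 and of *Sox4* between -0.26 and 0.06. Without both libraries of replicate 1, *Sox12* was at 0.86, *Sox5* at -0.52, *Sox6* at -0.22 and *Sox4* at 0.10, and with DESeq2 and the block on those 4 libraries at 1.01, -0.54, -0.22 and 0.12. The causes of these changes were not tested. The SOXC to chondrogenic difference lay between 0.41 and 0.94 with 1 library left out, and at 0.67 with the transcript length, choices made after seeing the data. Levels as TPM keep the order of the members within a library, by construction. TPM values lie on another scale than CPM per kilobase, and between populations they can differ in direction. The mean of *Sox4* was 19.9 TPM in Gli1+ and 19.8 in Gli1- cells, against 6.21 and 6.50 CPM per kilobase. The means of the other members kept their direction.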
